A study of Mus musculus with 3 samples.

Results

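Primordial germ cell genes were followed in the embryonic region of wild-type mouse embryos at the early head-fold (EHF) stage. They comprise 9 genes, chosen by name from the biology of germ cell founders: *Dppa3*, *Prdm1*, *Ifitm1*, *Ifitm2*, *Ifitm3*, *Nanos3*, *Tcfap2c* (the older symbol of *Tfap2c*), *Kit*, and *Kitl*. All 9 were found among the 30854 gene symbols of the deposited table. Embryos labelled Cd-1 (an outbred stock), untreated, were cut at the border between the extraembryonic and embryonic regions. RNA of the embryonic part was hybridized to 3 Illumina bead arrays, replicates 1, 2, and 3. The study's methods name wild-type ICR mice and TRIzol for the RNA, while the labels give Cd-1 and an RNeasy kit. Which of these holds for the arrays is not settled. These 3 arrays form a single group, so every gene was set against the background of its own array, and no stages or genotypes were compared. How many embryos contributed to an array is not settled by the labels or the methods, and nothing says that the arrays hold RNA of separate litters, so the spread between them may be partly technical.

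Primordial germ cells are the founders of eggs and sperm. In the mouse they arise from the posterior epiblast in answer to BMP signals, and around the EHF stage they form a small cluster at the base of the allantois. *Prdm1* and *Tfap2c* encode transcriptional regulators required for their specification, *Dppa3* and *Nanos3* are among the genes that mark them as they form, and the receptor Kit with its ligand Kitl serves their survival and migration. The cluster lies near the line along which the embryos were bisected, and whether it was included in the part taken was not tested here. Several of these genes are also active elsewhere in the conceptus, *Tfap2c* in extraembryonic and surface ectoderm, *Kit* in blood precursors, and *Prdm1* in endoderm.

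Promoter sequences of the *Ifitm* genes are shown first, because these genes are known as interferon-induced, and interferon response genes are described beside them below. Ifitm proteins are small membrane proteins that restrict the entry of viruses, and Ifitm3 was first described in germ cells under the name fragilis. The windows run from 250 bases before to 50 bases after the transcript start in RefSeq (GRCm38.p6), and capitals mark matches to GAAANNGAAA, the core of the interferon-stimulated response element, where N is any base, searched on both strands (TTTCNNTTTC on the other).
Ifitm1, chr7:140967826-140968125, plus strand: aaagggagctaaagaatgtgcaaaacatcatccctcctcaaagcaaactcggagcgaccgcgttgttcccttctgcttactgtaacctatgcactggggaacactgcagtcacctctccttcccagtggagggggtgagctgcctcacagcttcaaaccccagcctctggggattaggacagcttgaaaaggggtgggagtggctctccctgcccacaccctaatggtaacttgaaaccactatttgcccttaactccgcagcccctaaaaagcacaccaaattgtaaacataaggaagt
Ifitm2, chr7:140955912-140956211, minus strand: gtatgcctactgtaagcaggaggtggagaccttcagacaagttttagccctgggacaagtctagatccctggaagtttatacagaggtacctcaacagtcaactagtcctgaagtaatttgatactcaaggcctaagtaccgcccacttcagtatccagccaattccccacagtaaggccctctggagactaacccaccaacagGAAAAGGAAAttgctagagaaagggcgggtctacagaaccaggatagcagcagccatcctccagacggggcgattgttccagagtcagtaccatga
Ifitm3, chr7:141010695-141010994, minus strand: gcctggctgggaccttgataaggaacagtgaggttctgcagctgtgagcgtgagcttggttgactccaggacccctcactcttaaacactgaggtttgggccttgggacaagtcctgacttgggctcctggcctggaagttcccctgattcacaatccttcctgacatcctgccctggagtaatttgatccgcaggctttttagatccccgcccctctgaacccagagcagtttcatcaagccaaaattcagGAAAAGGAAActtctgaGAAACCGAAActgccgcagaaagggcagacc

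The *Ifitm2* window held 1 match, starting 46 bases before the transcript start (position -46). The *Ifitm3* window held 2 matches, starting 2 and 19 bases after the start. The *Ifitm1* window and those of *Prdm1*, *Nanos3*, *Kit*, and *Kitl* held none of these letters in this order. Over all 32851 promoter windows of the same length, 3.44% held at least 1 match and 0.225% held 2 or more. The longest run shared by the *Ifitm2* and *Ifitm3* windows was 13 bases, CAGGAAAAGGAAA, which contains a match in each. The longest run that *Ifitm1* shared with either was 8 bases. Such matches describe the sequence and were not tested as binding sites. *Dppa3* and *Tcfap2c* had no window in the table used.

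The members fell into 3 sets. *Ifitm2*, *Ifitm3*, and *Tcfap2c* were expressed above background on all 3 arrays. *Ifitm1* and *Kit* had mean signals above the background level, but their detection calls did not hold across arrays. *Dppa3*, *Prdm1*, *Nanos3*, and *Kitl* stayed at the level of the negative controls. In a whole embryonic region, fewer cells expressing a gene and less of its RNA per cell cannot be told apart.

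Expression above background was defined by a detection p-value under 0.01 on all 3 arrays, the detection p being the share of negative-control beads with a signal at least as high. This was met by 3 of 9 members, where 20.6% of all 30854 symbols met it. A second measure, limma's one-sided test of the normalized level above the background level, with Benjamini-Hochberg adjustment over all symbols, called 5 of 9 members, where it called 25.7% of all symbols. The 5 were the 3 detected members with *Ifitm1* and *Kit*. The background level of an array is the lowest signal of a single-probe symbol with a detection p above 0 and under 0.01. On the deposited log2 scale it was 6.69, 6.66, and 6.58 on replicates 1, 2, and 3. At the same threshold 9015, 8220, and 7191 symbols were detected on these arrays, from a median of 44, 43.5, and 43 beads. Under the looser or stricter rules named below, the share of all symbols was 24.7% at a detection p under 0.05, 17.0% at a detection p under 0.001, 33% with detection on at least 1 array, and 26.3% with a signal above the background level on all arrays. It was 21.1%, 21.6%, and 24.1% without replicates 1, 2, and 3. Levels of different genes come from different probes, so where a gene is given as the highest of a list, this describes probe signals and was not tested.

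**Figure D1:**
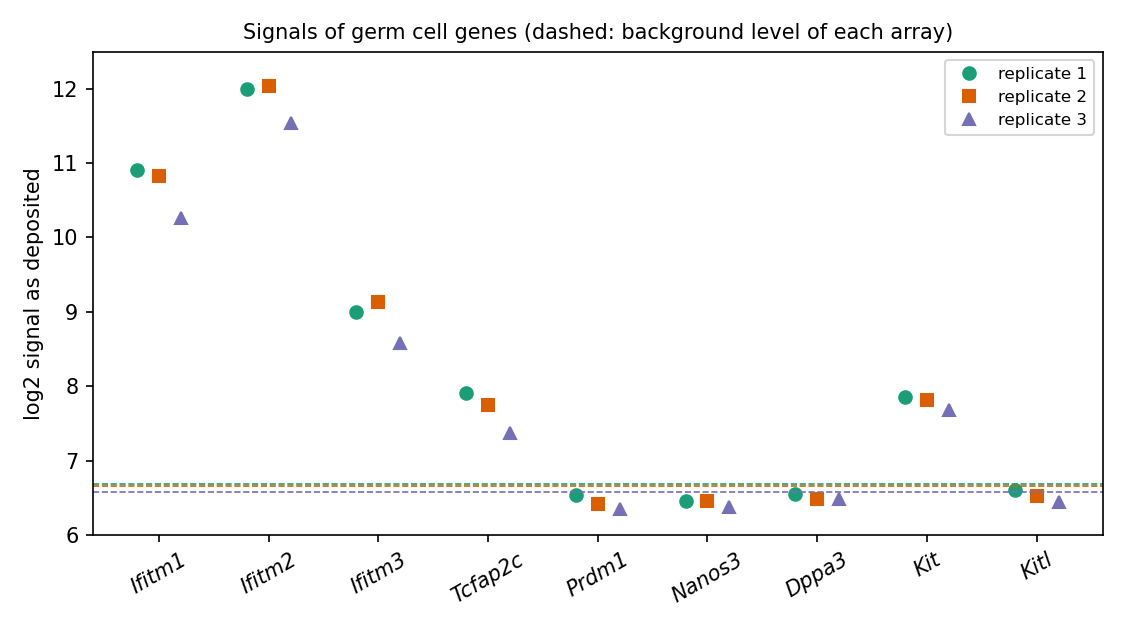
Log2 signal as deposited (vertical axis) of the 9 genes on replicates 1 (circles), 2 (squares), and 3 (triangles), with dashed lines at the background level of each array (6.69, 6.66, and 6.58). *Ifitm1*, *Ifitm2*, *Ifitm3*, *Tcfap2c*, and *Kit* lie above the lines on every array, and *Prdm1*, *Nanos3*, *Dppa3*, and *Kitl* lie below them on every array.

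*Ifitm2*, measured by 1 probe, had deposited log2 signals of 11.99, 12.04, and 11.54 on replicates 1, 2, and 3, with a detection p of 0 on each. All arrays lay at least 4.96 above their background level. After background correction and quantile normalization, its level exceeded the background level by 6.98 on the log2 scale (SE 0.15, SD 0.17, n = 3), and from 5.21 to 7.18 over 10 alternatives. The adjusted p-value of limma was 0 at machine precision and at most 9.90e-05 among the alternatives. The difference from background was thus far beyond the spread between arrays.

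*Ifitm3*, also measured by 1 probe, had signals of 8.9998, 9.1311, and 8.5740, again with a detection p of 0 on each array. The arrays overlapped within a range of less than 1 on the log2 scale and none came near background. The normalized level was 3.81 above background (SE 0.15, SD 0.21, n = 3), from 2.24 (no background correction) to 4.02 over the alternatives. The adjusted p from limma was 2.32e-139, and between 1.26e-259 and 0.00022 over the alternatives. The fit gave every gene the same SE, because the shift of the background level between arrays dominates the spread, so these p-values treat the spread as known.

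*Ifitm1* had signals of 10.91, 10.82, and 10.26, the mean over 5 probes. These means exceeded the background level by 4.22, 4.17, and 3.68. Its detection p-values, 0.0225, 0.0117, and 0.00535, passed the threshold on replicate 3 alone, so a high mean signal went with a weak detection call. The normalized level was 5.75 above background (SE 0.15, SD 0.23, n = 3), from 4.01 to 5.99 over the alternatives, with an adjusted p from limma of at most 0.000138 among them.

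The detection p of a gene with several probes is a combined value. It was found to stand for the sum of the p-values of its probes, since the sums worked back from it were whole multiples of 1 in 936, the step of a single probe, in 99.8% of 5656 values for 3 probes and 95.3% of 724 values for 5 probes (tolerance 0.05 of a step, where chance gives 10%). The values of the 5 members with several probes lay on these steps on every array. For *Ifitm1* the p-values of the 5 probes summed to 1.21, 1.04, and 0.853, a mean of 0.241, 0.207, and 0.171 per probe. At least 1 of its probes therefore had a p of 0.241 or more on replicate 1, although the mean signal was high, so its probes disagreed. Of the 121 symbols with 5 probes whose signal exceeded background on each of the arrays, 68 (56.2%) likewise lacked the call. The *Ifitm* genes are related in sequence, and whether their probes also bind transcripts of one another was not tested.

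Other members of the family were read from a fixed list. *Ifitm5*, *Ifitm6*, *Ifitm7*, and *Ifitm10* (listed under an older symbol) were each measured by 1 probe, and 0 of 4 were above background, on any array. With 20.6% of all symbols above background, and 33% on at least 1 array, a list of 4 genes is too short to set it apart from all symbols. Limma called 0 of 4 as well, also at an unadjusted p under 0.05. Their median level relative to the background level was -0.59, beside -0.46 over all symbols. Of 14 interferon response genes measured, 0 were above background by the detection rule (20.6% of all symbols) and 1, *Irf1*, was called by limma (25.7% of all symbols). *Irf1*, a transcription factor of the interferon pathway, had signals of 6.94, 6.80, and 6.68 over 5 probes. *Ifit2*, *Irf9*, and *Ifnar2* had the next highest mean signals in that list, 6.71 (SD 0.17), 6.64 (SD 0.17), and 6.57 (SD 0.16, n = 3 each). The calls in this list varied with the threshold, with 2 genes at a detection p under 0.05 (24.7% of all symbols) and 5 when detection on a single array sufficed, a share near the 33% of all symbols. Without replicate 2 the count was 1, and without replicate 3 it was 2.

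*Tcfap2c*, which encodes the transcription factor AP-2γ, had signals of 7.91, 7.75, and 7.37 on replicates 1, 2, and 3, the mean over 3 probes. Its detection p-values were 2.03e-10, 4.39e-08, and 8.71e-06. The p-values of the 3 probes summed to 0.00107, 0.00641, and 0.0374, so each single probe had a p no higher than these sums, and on replicates 1 and 2 every probe passed the threshold of 0.01 by itself. On replicate 3 the mean p per probe was 0.0125, so at least 1 probe missed the threshold there. The normalized level was 2.19 above background (SE 0.15, SD 0.24, n = 3), with an adjusted p from limma of 2.59e-47, and between 7.48e-74 and 0.00131 over the alternatives. The difference was 1.02 without background correction, the lowest of the alternatives, and 2.44 without replicate 3, the highest.

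*Tcfap2c* is also active in extraembryonic ectoderm and in surface ectoderm, so markers of these tissues were read beside it. Of 12 extraembryonic ectoderm markers, 3 (25%, near the 20.6% of all symbols) were above background, *Cdx2* (mean signal 9.53, SD 0.39), *Rhox5* (9.39, SD 0.83), and *Ets2* (8.66, SD 0.48, n = 3 each). *Fgfr2*, with 4 probes and a mean of 8.57 (SD 0.31), missed the call on replicate 3 (detection p 0.0107), and without that replicate 5 of the 12 were above background. *Elf5*, *Eomes*, *Ascl2*, *Gcm1*, *Tpbpa*, and *Prl3d1*, of the same list, had a detection p of 0.01 or more on every array. The tissue from which the signals of the called markers came was not tested. The summed normalized signal of the 12 genes was 2216, 2383, and 1760 on replicates 1, 2, and 3. *Cdx2* had the highest mean signal of the list, though on replicate 2 *Rhox5* exceeded it. Of 7 surface ectoderm and plate border markers, 5 were above background (71.4%, beside 20.6% of all symbols). Mean signals were 9.44 (SD 0.56) for *Krt8*, 9.38 (SD 0.28) for *Msx1*, 8.98 (SD 0.53) for *Krt18*, and 7.36 (SD 0.34, n = 3 each) for *Gata3*, with *Dlx3* as the fifth. *Dlx5* and *Tcfap2a* (the older symbol of *Tfap2a*) had a detection p of 0.01 or more on every array. Limma called *Tcfap2a*, at 0.94 above background, and not *Dlx5*. The summed signal of the 7 markers was 1957, 2005, and 1668. *Krt8* had the highest mean signal of the list, though on replicate 3 *Msx1* exceeded it. The part of either tissue in the signal of *Tcfap2c* was not tested.

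*Prdm1*, which encodes the repressor Blimp1, had signals of 6.53, 6.41, and 6.35 over 2 probes, all below the background level of their array. Its detection p-values were 0.379, 0.777, and 0.790, within the range of the negative controls. *Nanos3*, which encodes an RNA-binding protein that protects germ cells from death, had signals of 6.46, 6.45, and 6.38 from 1 probe, with detection p-values of 0.777, 0.528, and 0.524. Both genes were thus indistinguishable from background at the sensitivity of these arrays.

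*Dppa3*, also called Stella, encodes a chromatin-binding protein that shields methylated DNA in the early embryo. Its single probe gave signals of 6.55, 6.49, and 6.48, from 42, 39, and 29 beads, with a standard error over beads of 0.06, 0.05, and 0.09 on the log2 scale. The detection p-values were 0.282, 0.357, and 0.0897. None met the threshold, and the signals lay 0.14, 0.17, and 0.10 below the background level, a gap of about the size of the bead error on replicate 3. The normalized level of *Dppa3* relative to background was -0.43 (SE 0.15, n = 3), that of *Prdm1* -0.58, and that of *Nanos3* -0.58, against a median of -0.46 over all symbols. That these genes were not detected does not show that they were silent in the embryo.

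**Figure D2:**
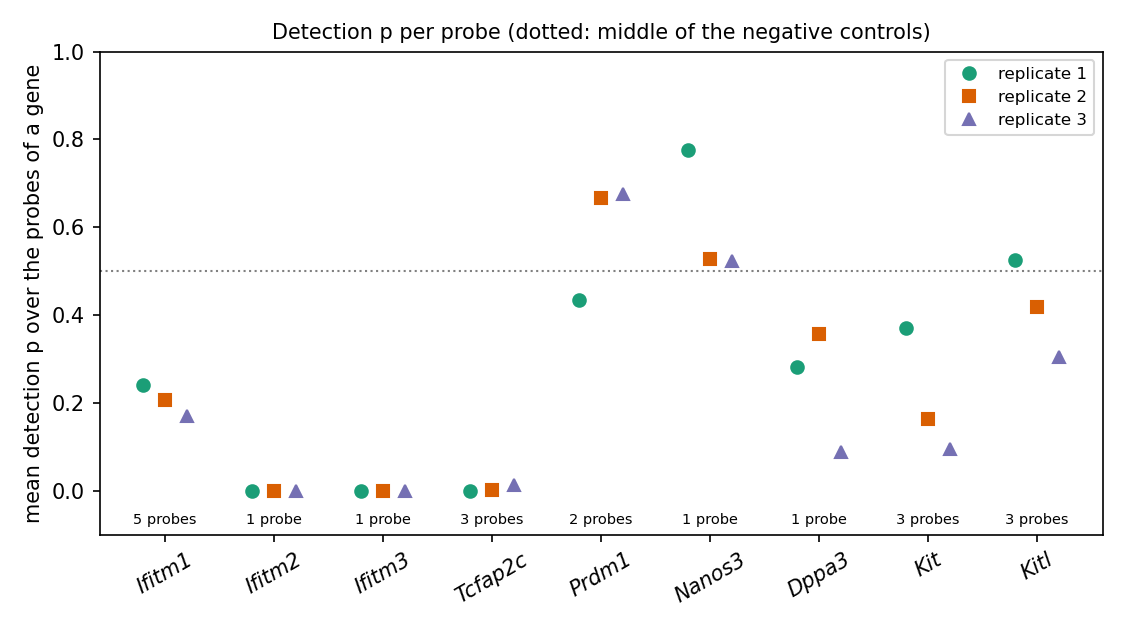
Mean detection p over the probes of a gene (vertical axis) for the 9 genes on replicates 1 (circles), 2 (squares), and 3 (triangles), with the number of probes under each gene and a dotted line at 0.5, the middle of the negative controls. *Ifitm2*, *Ifitm3*, and *Tcfap2c* sit at or close to 0 on every array, *Ifitm1* and *Kit* between 0.0958 and 0.370, and *Nanos3* at 0.524 or higher.

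*Kit*, the receptor tyrosine kinase, had signals of 7.85, 7.81, and 7.67, the mean over 3 probes, which lay 1.17, 1.16, and 1.09 above the background level. Its detection p-values were 0.227, 0.0197, and 0.00396, so the call was met on replicate 3 alone. The p-values of the 3 probes summed to 1.11, 0.490, and 0.287, and on replicate 1 at least 1 probe had a p of 0.370 or more. Among the 1033 symbols with 3 probes whose signal exceeded background on each of the arrays, 589 (57.0%) had no detection call either. The normalized level of *Kit* was 2.36 above background (SE 0.15, SD 0.06, n = 3), with an adjusted p from limma of 1.33e-54, and between 7.59e-80 and 0.00127 over the alternatives. It ranged from 1.13 without background correction to 2.45 without replicate 3.

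*Kitl*, which encodes the ligand of Kit (stem cell factor), had signals of 6.60, 6.52, and 6.45 over 3 probes, below the background level on every array. Its detection p-values were 0.559, 0.320, and 0.127. Neither gene of the pair met the detection rule, limma called the receptor alone, and the difference between the genes was not tested. The normalized level of *Kitl* was -0.41 relative to background (SE 0.15, n = 3), close to the median of -0.46 over all symbols.

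*Kit* is also expressed by blood precursors. Of 12 blood and endothelial markers, 3 (25%) were above background, a share near the 20.6% of all symbols. These were *Etsrp71* (an older symbol of *Etv2*, a regulator of the endothelial and blood lineages; mean signal 9.43, SD 0.16), *Lmo2* (8.91, SD 0.16), and *Tal1* (7.11, SD 0.11, n = 3 each). *Kdr* had the next highest mean signal, 6.54 (SD 0.10), and the erythroid genes *Gata1*, *Klf1*, *Hbb-bh1*, and *Hba-x* had a detection p of 0.01 or more on every array. The summed normalized signal of the 12 genes was 1085, 1195, and 1642 on replicates 1, 2, and 3, and *Etsrp71* had the highest signal of the list on every array. The normalized level of *Kit* was 6.98, 7.18, and 7.47 on the same arrays, lowest on replicate 1 and highest on replicate 3 like that sum. As deposited the order of *Kit* turned, with its lowest signal on replicate 3 (7.67). The deposited signals of *Lmo2* (8.75) and *Tal1* (6.99) were also lowest on replicate 3, while that of *Etsrp71* was highest there (9.56). The part of blood precursors in the signal of *Kit* was not tested.

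Other genes of early germ cells and of the pluripotent state were read from a fixed list. Of 19 measured, 8 were above background, 42.1% beside 20.6% of all symbols, and their median level relative to background was 0.69, beside -0.46 over all symbols. *Pou5f1*, which encodes the pluripotency factor Oct4, had a mean signal of 8.48 (SD 0.31), and *Akp2* (an older symbol of *Alpl*, the tissue non-specific alkaline phosphatase long used to stain germ cells) 7.43 (SD 0.26). *Dnd1*, whose RNA-binding product is needed for germ cell survival, stood at 7.63 (SD 0.18). *Prmt5*, an arginine methyltransferase that partners with Blimp1 in germ cells, stood at 9.43 (SD 0.26). *Lin28* (*Lin28a*), which blocks the processing of let-7, stood at 8.09 (SD 0.55), and *Dppa5* (*Dppa5a*) at 7.37 (SD 0.19). *Utf1* (6.74, SD 0.08) and *Nanos1* (6.71, SD 0.13, n = 3 for each gene) lay close to the background level, and neither was called by limma. At a detection p under 0.001 the count of the list was 5. Of the 19 genes, 7 were detected on no array. These were *Prdm14*, *Dppa2*, *Dppa4*, *Klf4*, *Zfp42*, *Tcl1*, and *Tcfap2a*, of which limma called *Tcfap2a* alone. Which cells of the embryonic region gave the signals of this list was not tested.

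*Prdm14*, the partner of *Prdm1* in germ cell specification, was not above background, with signals of 6.55, 6.61, and 6.48 and detection p-values of 0.280, 0.0256, and 0.108. Like *Prdm1*, *Dppa3*, and *Nanos3*, it met the threshold on no array, and its normalized level relative to background was -0.32.

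Late germ cell genes act in the gonad and in meiosis. None of 19 measured was above background by the detection rule, beside 20.6% of all symbols, and limma called 0, also at an unadjusted p under 0.05, beside 25.7% of all symbols. Their median level was -0.52 relative to background, beside -0.46 over all symbols, and 17 of them had a detection p of 0.01 or more on every array. The remaining 2 were *Ddx4* and *Tdrd6*. *Ddx4*, the germ cell RNA helicase also named Vasa, met the threshold on replicate 1 alone (detection p 1.85e-05, 0.630, and 0.566), and *Tdrd6* on replicates 1 and 2 (0.00214, 0.00427, and 0.272), so without replicate 3 the count was 1.

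Signals that induce germ cells were represented by 15 measured genes, of which 7 (46.7%, beside 20.6% of all symbols) were above background. Their median level was 1.18 above background, beside -0.46 over all symbols. *Bmp4*, the ligand that instructs epiblast cells to become germ cells, had a mean signal of 8.13 (SD 0.23). Its receptors *Acvr1* (7.47, SD 0.20) and *Bmpr1a* (7.77, SD 0.43) were also above background. So were the BMP targets *Id1* (8.68, SD 0.22), *Id3* (7.86, SD 0.20), and *Msx1* (9.38, SD 0.28), and *T* (10.17, SD 0.61, n = 3 for each gene), the mesoderm factor Brachyury. The ligands *Bmp8b*, *Bmp2*, and *Wnt3*, the receptor *Bmpr2*, and the target *Msx2* were not detected on any array. These genes act in many cells of the embryo besides those that form germ cells.

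Of 10 genes of germ cell migration and survival, 3 (30%, beside 20.6% of all symbols) were above background, the chemokine receptor *Cxcr4* (6.91, SD 0.21), the death factor *Bax* (7.89, SD 0.24), and *Gja1* (11.87, SD 0.39, n = 3 each). Limma called 7 of the 10, beside 25.7% of all symbols, and 8 had a signal above the background level on all arrays. The genes called by limma included *Cxcl12*, the ligand of Cxcr4, whose 5 probes gave signals of 7.84, 7.70, and 7.36.

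Of 10 genes that early germ cells silence or reduce, 6 were above background (60.0%, beside 20.6% of all symbols), among them *Hoxb1* (8.61, SD 0.31), *Evx1* (9.23, SD 0.46), *Mesp1* (7.03, SD 0.42), the DNA methyltransferase *Dnmt3b* (11.79, SD 0.52), and the histone methyltransferase *Ehmt1* (6.69, SD 0.11, n = 3 each). Limma did not call *Ehmt1*, whose level was 0.13 above background. *Dnmt3a*, of the same list, was detected on no array (detection p 0.840, 0.984, and 0.457). The median level of the list was 2.66 above background, beside -0.46 over all symbols.

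**Figure D3:**
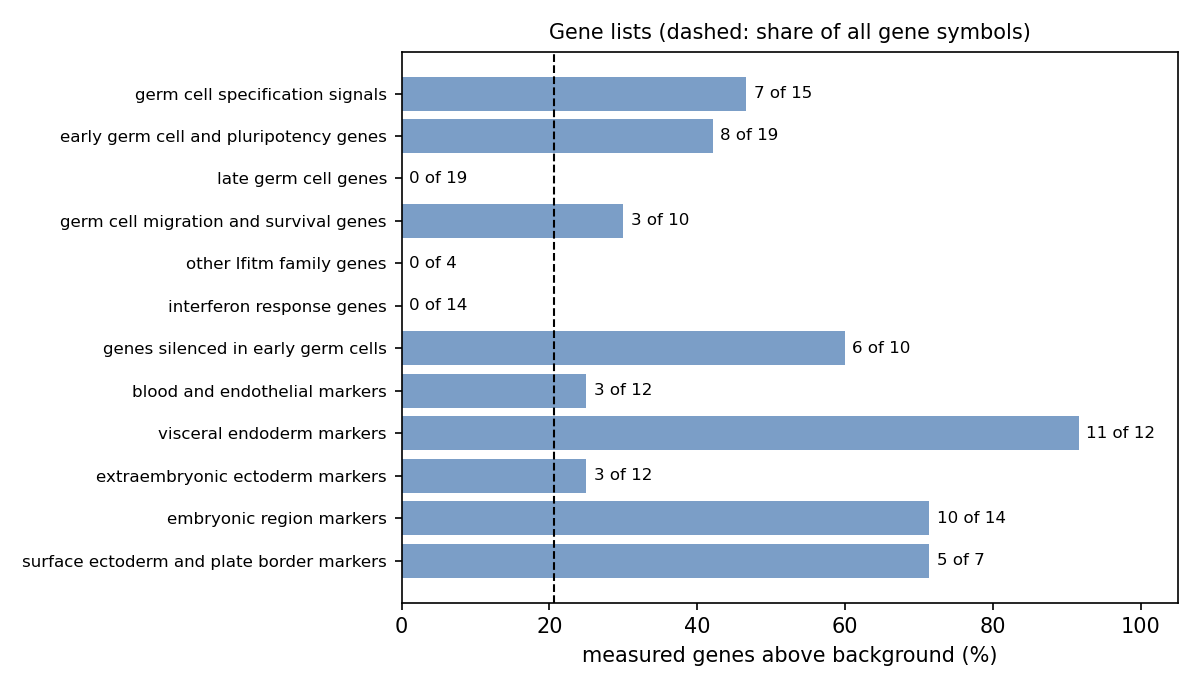
Share of the measured genes of each list that was above background on all 3 arrays (horizontal axis, %), with the number called and the number measured beside each bar and a dashed line at 20.6%, the share of all symbols. Late germ cell genes (0 of 19), other Ifitm genes (0 of 4), and interferon response genes (0 of 14) have no bar, and early germ cell and pluripotency genes reach 8 of 19.

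Over the 12 lists together, 52 of 140 genes measured were above background (37.1%), beside 20.6% of all symbols, the share against which the next counts also stand. The tissue label was checked with 14 embryonic region markers, of which 10 were above background. Mean signals were 9.46 (SD 0.21) for *Otx2* and 8.44 (SD 0.02, n = 3 each) for *Meox1*, besides *T* and *Hoxb1*. *Hesx1*, *Six3*, *Foxa2*, and *Sox2* were not above background by the detection rule, and limma called only *Sox2* of them. Visceral endoderm markers were above background in 11 of 12 cases. The mean signal of *Amn* was 10.91 (SD 0.45), of *Ttr* 10.99 (SD 0.78), of *Apoa1* 11.42 (SD 0.41), and of *Spink3* 11.45 (SD 0.98, n = 3 each). Their summed normalized signal was 11390, 13645, and 8497 on replicates 1, 2, and 3. *Spink3* had the highest mean signal of the list, though on replicate 3 *Apoa1* and *Amn* exceeded it. A part of visceral endoderm in the signals of the 9 genes was not tested.

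The spread between the arrays differed among the 5 members called by limma. After normalization, the SD over the 3 arrays was 0.05 for *Tcfap2c*, 0.07 for *Ifitm1*, 0.13 for *Ifitm2*, 0.20 for *Ifitm3*, and 0.25 for *Kit*, where the median SD of all symbols above background was 0.17. This order of the genes turned on the other scales. As deposited, the SD was lowest for *Kit* (0.09) and highest for *Ifitm1* (0.35), with 0.28 for *Tcfap2c*. For the level above background, the SD was lowest for *Kit* (0.06) and highest for *Tcfap2c* (0.24). The normalized level of *Ifitm3* was 8.45, 8.84, and 8.68, and the standard error over beads of its single probe was 0.09, 0.07, and 0.11. Error over beads leaves out the spread between samples. The order of the arrays depended on the scaling. As deposited, the signals of *Kit* were lowest on replicate 3, and after normalization highest there. Replicate 3 also had the lowest median signal over all symbols as deposited (6.42, beside 6.57 and 6.51).

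**Figure D4:**
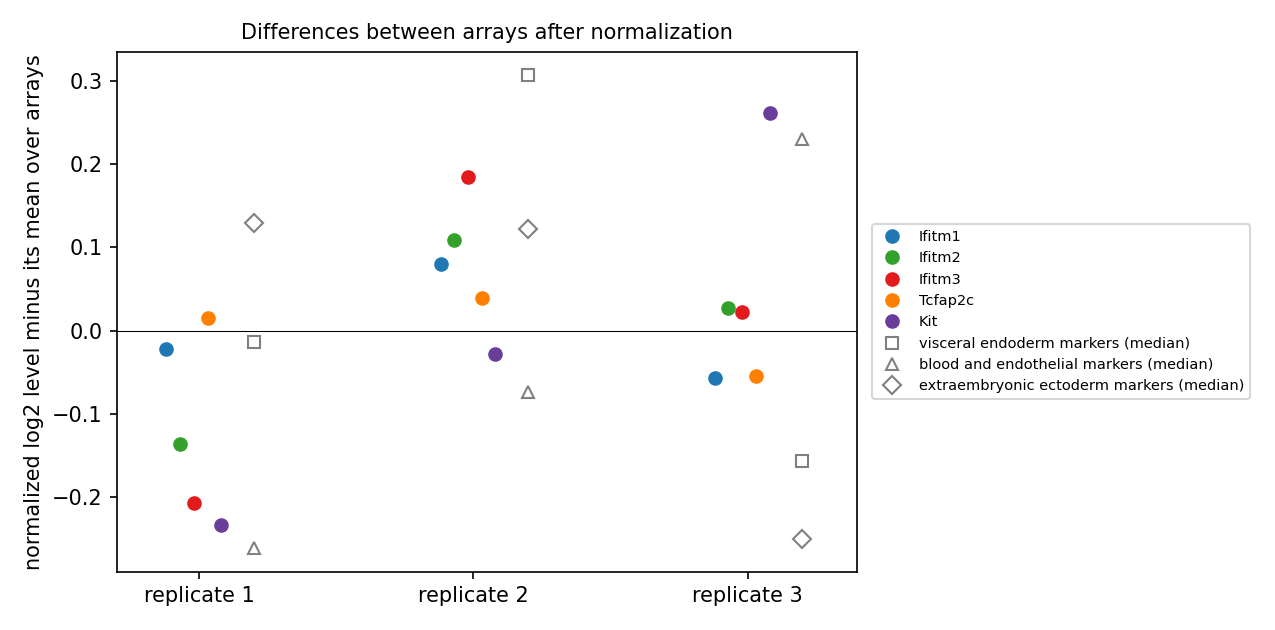
Normalized log2 level minus its mean over the arrays (vertical axis) on replicates 1, 2, and 3 for *Ifitm1*, *Ifitm2*, *Ifitm3*, *Tcfap2c*, and *Kit* (filled circles), with the median of the same measure over the detected markers of 3 tissues (open grey symbols). *Kit* stands at -0.23 on replicate 1 and 0.26 on replicate 3, and *Tcfap2c* between -0.05 and 0.04 over the arrays. On replicates 1 and 3, the blood and endothelial markers (3 detected) stand at -0.26 and 0.23. The visceral endoderm markers (11 detected) stand at -0.01 and -0.16 there, and the extraembryonic ectoderm markers (3 detected) at 0.13 and -0.25.

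For *Ifitm2* and *Tcfap2c*, the listed genes with the closest pattern over the 3 arrays were taken from the 54 other detected genes of the lists, by the distance between their deviations from their own means. For *Ifitm2* these were *Msx1* (distance 0.03) and *Bmp4* (0.06), and for *Tcfap2c* *Pou5f1* (0.06) and *Cdx2* (0.06). The median distance was 0.34 for *Ifitm2* and 0.32 for *Tcfap2c*. With 3 arrays of a single group such closeness is a description only.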

How the data were processed

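RNA of 3 samples was measured on Illumina Mouse-6 arrays. The authors deposited log2 signals per gene symbol, averaged over probes and not normalized between arrays, with bead numbers, standard errors over beads, and detection p-values. Whether logs or intensities were averaged is not given in the sources used here, and Partek is the only software they name for these arrays. Groups came from the labels, and 0 columns had no sample. Members and lists were chosen with earlier results of these data known. Genes were named by rule: all members, listed germ cell genes above background, and up to 4 genes of every other list by mean signal. Any others were named after their values were seen, and some values that the rule names are not reported here.

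Single-probe symbols (22003) were those with whole bead numbers and detection p-values on steps of 1 in 936, which moved 659 symbols to several probes. Signals were corrected with normexp (offset 16) and quantile normalized. Levels above background were tested with limma (lmFit, eBayes, one-sided, Benjamini-Hochberg, threshold 0.05) over 30854 symbols, a step tested on simulated data. The number of arrays limits precision. Older symbols and promoters came from RefSeq (GRCm38.p6). Alternatives covered detection thresholds, numbers of arrays, correction, scaling, background level, a filter on dim genes, and leaving out replicates. Computations ran in R 4.3.3 with limma 3.58.1 and in Python 3.11.15 with scipy 1.17.1.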

Additional observations from a re-analysis of the deposited data

How the results depend on the processing

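The count of members above background was 3. It was 5 in the limma test (25.7% of all symbols), 5 with detection on at least 1 array (33%), and 5 when the signal had to exceed the background level on every array (26.3%), a rule added after seeing the data. The 5 were *Ifitm1*, *Ifitm2*, *Ifitm3*, *Tcfap2c*, and *Kit* each time, and a detection p under 0.05 added *Ifitm1* alone. For a symbol with 1 probe, such as *Ifitm2* and *Ifitm3*, a signal above the background level repeats the detection call by definition. Of 4593 such symbols above that level, 0 lacked the call. Limma tests against a level set in the same way, so these rules are not independent checks. *Ifitm1* and *Kit*, on which the rules differed, have 5 and 3 probes. With detection on at least 1 array fewer arrays had to pass, and the cause was not tested for the other rules. Without a replicate the count was 3 to 3. Limma called 5 members in each of 10 alternatives, and 5 to 5 without a replicate. Listed genes above background numbered 52, from 46 to 77 over the alternatives, and 52 to 63 without a replicate.

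Among the 5 members called by limma, the log2 difference from background moved by more than 1.5 times for 3. Without background correction they were 1.02 for *Tcfap2c*, 1.13 for *Kit*, and 2.24 for *Ifitm3* above background, and those of *Ifitm1* and *Ifitm2* were 4.01 and 5.21. The other 4 members lay below the background level in every alternative, between -0.60 and -0.02. With an offset of 50 they were 1.40 for *Tcfap2c* and 1.54 for *Kit*. With single-probe symbols taken from bead numbers alone, a setting chosen after seeing the data, they were 1.30 for *Tcfap2c* and 1.49 for *Kit*, since that lets symbols with several probes set the background level. Scaling to equal medians and no normalization give the same levels, because the shift cancels against the background level. No paired analysis was possible because the 3 arrays form 1 group.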

Other observations

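Several genes of the pluripotent state passed the detection threshold on some arrays but not on all. *Nanog*, with 2 probes, had signals of 7.23, 6.80, and 6.69 and missed the threshold on replicate 2 (detection p 0.0464). *Sox2*, with 2 probes, had signals of 7.07, 6.92, and 6.75 and missed it on replicate 3 (0.0112). *Sall4*, with 3 probes, had signals of 9.33, 9.21, and 8.55 and met it on replicate 1 alone, although limma called it with a level 3.97 above background. *Cdh1*, which encodes E-cadherin, had signals of 8.55, 8.20, and 7.78 over 2 probes and met the threshold on no array, although limma called it with a level 2.90 above background. Limma also called *Nanog* (0.69 above background) and *Sox2* (0.75). These 4 genes were chosen after their values were seen.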
